A study of Rattus norvegicus with 6 samples.

Results

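Serpins are serine protease inhibitors that trap a protease by offering a reactive loop as bait and then changing shape around it. Their genes are sorted into clades named by letter. Clade A holds mostly secreted plasma inhibitors of the liver, clade B intracellular inhibitors, clade C antithrombin, clade D heparin cofactor II, clade E protease nexin-1 and its relatives, clade F the pigment epithelium-derived factor and the plasmin inhibitor, clade H the collagen chaperone HSP47 and clade I neuroserpin. In kidney, protease nexin-1 is known for inhibiting prostasin, a protease that activates the epithelial sodium channel.

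The Serpin genes were taken from the table of normalized counts as the rows whose name begins with Serpin, with Serping1 left out. The 41 rows described here, of 27321 in the table, were 38 genes and 3 features reaching across neighbouring genes, with at most 1 read in any library. The genes described were 13 of clade A, 16 of clade B, 2 each of clades E, F and I, and 1 each of clades C, D and H. The libraries came from the inner medullary (IM) tip of male Sprague-Dawley rats aged 3 months. Of these libraries, 3 were from rats given vehicle and 3 from rats made diabetic with 62.5 mg/kg of streptozotocin (STZ) by tail vein. STZ kills the insulin-producing cells of the pancreas. Tissue was taken at day 15, and no transgene or other engineered allele is named for either group. Since the diabetes was produced by a toxin, effects of STZ itself and of the diabetes cannot be told apart. The labels do not say whether any animals were pooled, so p-values measure the spread between these libraries.

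Each library had between 3412311 and 5575171 reads on features, and 1 read was worth between 0.763 and 1.11 normalized counts, the unit of every level below. A gene at 3 reads or fewer was taken as being at the floor, which covers counting error only because the cDNA was amplified by PCR without molecular identifiers. Background was read from 836 olfactory receptor features, whose 95th percentile lay between 1.86 and 10.02 normalized counts in the 6 libraries. All control libraries were run on one sequencing lane and each STZ library on another lane, so lane and treatment cannot be told apart. The water channels Aqp2, Aqp3 and Aqp4 of the collecting duct, which marked the tissue, had between 2137 and 22114 normalized counts in every library. Aqp2 was higher in every STZ library than in every control library but did not pass (adjusted p = 0.180 by limma). The 7 collecting duct markers found all had a log2 fold change above 0, none passed, and their summed levels overlapped. Of 9 lists of cell type markers, 3 had summed levels without overlap of the groups. Urothelial markers summed to between 90.8 and 142 in control and between 441 and 529 in STZ rats, thick ascending limb markers to between 1099 and 1886 against between 210 and 597, and endothelial markers to between 6796 and 8780 against between 3695 and 4099. In STZ rats the urothelial sum was mostly Upk3a. The other 5 urothelial markers summed to between 62.5 and 92.4 in control and between 109 and 162 in STZ rats, without overlap. Emcn was the larger part of the endothelial sum except in STZ replicate 2, where it had 2003 against 2096 for the other 4 markers. Those other 4 endothelial markers summed to between 1612 and 2410 in control and between 1649 and 2096 in STZ rats, which overlapped. In tissue of mixed cells, fewer cells of a type and less RNA per cell cannot be told apart, and the part of these cell types in the results that follow was not tested.

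The promoters of the Serpin genes with the lowest and the highest log2 fold change are shown first, as reference sequence for the results that follow. They are the 250 bases before the transcription start in RefSeq's GRCr8 assembly, read 5′ to 3′ on the gene's own strand. Serpine2 lies at chr9:88637203-88637452 and Serpina1 at chr6:128653126-128653375, both on the minus strand. Of the 38 genes, 36 matched a RefSeq symbol, 2 matched a synonym, and 32 had a promoter entry. Capitals mark every match, on either strand, to the GC box, spelled GGGCGG, or to the Smad box, spelled CAGAC.
Serpine2: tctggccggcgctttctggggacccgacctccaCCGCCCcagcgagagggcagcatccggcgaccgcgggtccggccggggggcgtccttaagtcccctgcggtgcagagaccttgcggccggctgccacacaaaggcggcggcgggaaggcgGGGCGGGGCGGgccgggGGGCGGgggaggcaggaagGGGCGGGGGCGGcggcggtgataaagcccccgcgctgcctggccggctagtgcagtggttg
Serpina1: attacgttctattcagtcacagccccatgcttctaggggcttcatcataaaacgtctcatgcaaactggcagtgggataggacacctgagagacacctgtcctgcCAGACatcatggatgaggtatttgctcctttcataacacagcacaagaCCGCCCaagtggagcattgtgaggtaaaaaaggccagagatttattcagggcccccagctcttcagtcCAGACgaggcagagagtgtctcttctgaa
The Serpine2 promoter held 6 GC boxes, 5 of them between 50 and 92 bases before the start, with an adjoining pair that overlaps by a base. At least 1 GC box was found in 30.5% of the 33469 promoters in the table, and 6 or more in 0.825%. Its G and C content was 76.8%, against a median of 51.2% over all promoters. The Serpina1 promoter held 1 GC box and 2 Smad boxes, and 42.9% of promoters held at least 1 Smad box. The TATA box, searched on both strands as TATAAA, is in 12.9% of promoters and in neither of these windows. The CCAAT box, searched by those letters, is in 34.0% of promoters and in neither of these. The AP-1 site, searched as TGANTCA, is in 6.34% and again in neither. These matches describe the letters only, since binding was not measured.

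Of the 38 Serpin genes, 14 lay above the olfactory receptor percentile in all 6 libraries, which held for 42.3% of the 24601 features that did not reach across genes. They were 5 genes of clade A, 5 of clade B and 1 each of clades E, F, H and I. Another 14 genes never exceeded 3 reads, and 2 of these, Serpina9 and Serpinb2, had no read at all. A mean of at least 5 normalized counts over the 6 libraries, which was required for testing, was reached by 18 Serpin genes and by 54.1% of those features.

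**Figure D1:**
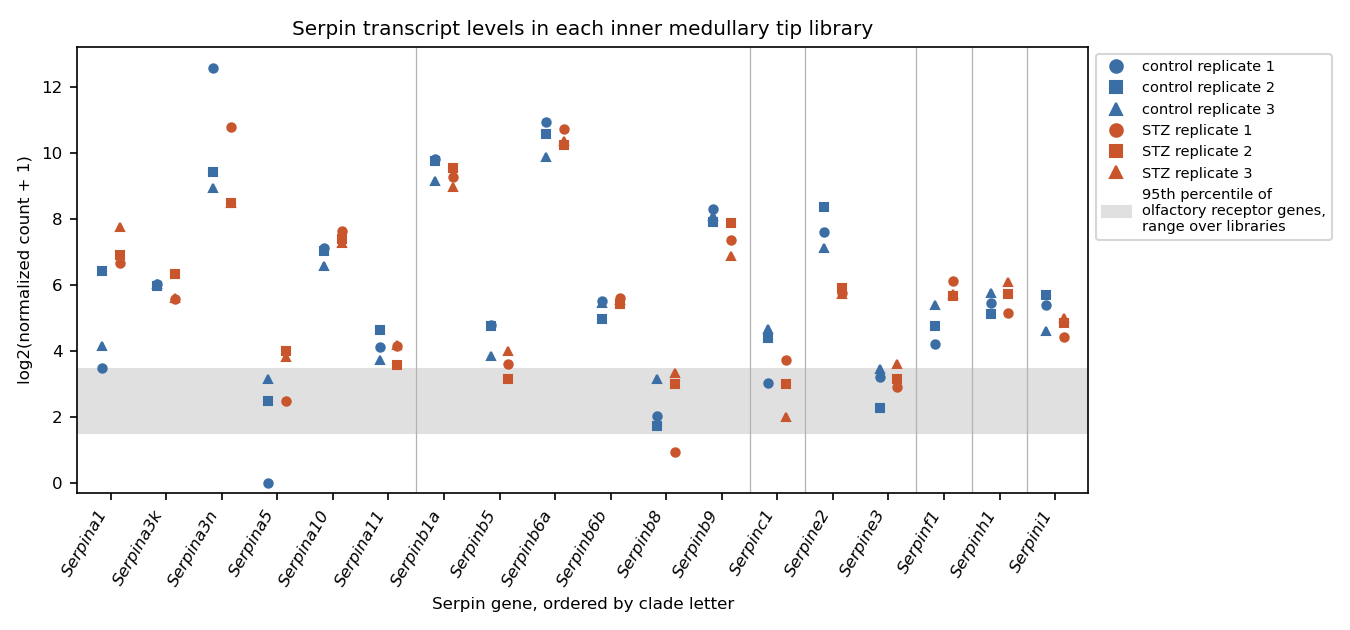
Levels of the 18 tested Serpin genes in each library, as log2(normalized count + 1), with genes ordered along the horizontal axis by clade letter and one symbol per library. The grey band spans the olfactory receptor percentile over the 6 libraries. Serpine2 has all control symbols above all STZ symbols, and the level of Serpina3n in control replicate 1 lies far above the other control libraries.

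Of the 18 Serpin genes tested, 1 fell in STZ rats and none rose by limma, and edgeR and DESeq2 on recovered reads likewise called 1 lower and none higher. This was Serpine2 of clade E. An adjusted p under 0.05 by limma was found for 2.10% of all 13486 features tested, 1.17% higher and 0.927% lower. An unadjusted p under 0.05 was found for 5 of the 18 genes and for 14.7% of features. By clade, the tested genes that did not pass numbered 6 in clade A, 6 in clade B, and 1 each in clades C, E, F, H and I. The median log2 fold change of the 18 genes was −0.10, compared with 0.0056 over all features, with 8 genes above 0 and 10 below. The groups did not overlap in 5 of the 18 genes, 3 higher and 2 lower in STZ rats, and the same held for 20.3% of all features tested, 10.1% higher and 10.3% lower. Members of the family thus lay on both sides of 0, from −1.89 for Serpine2 to 2.42 for Serpina1 on the log2 scale.

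**Figure D2:**
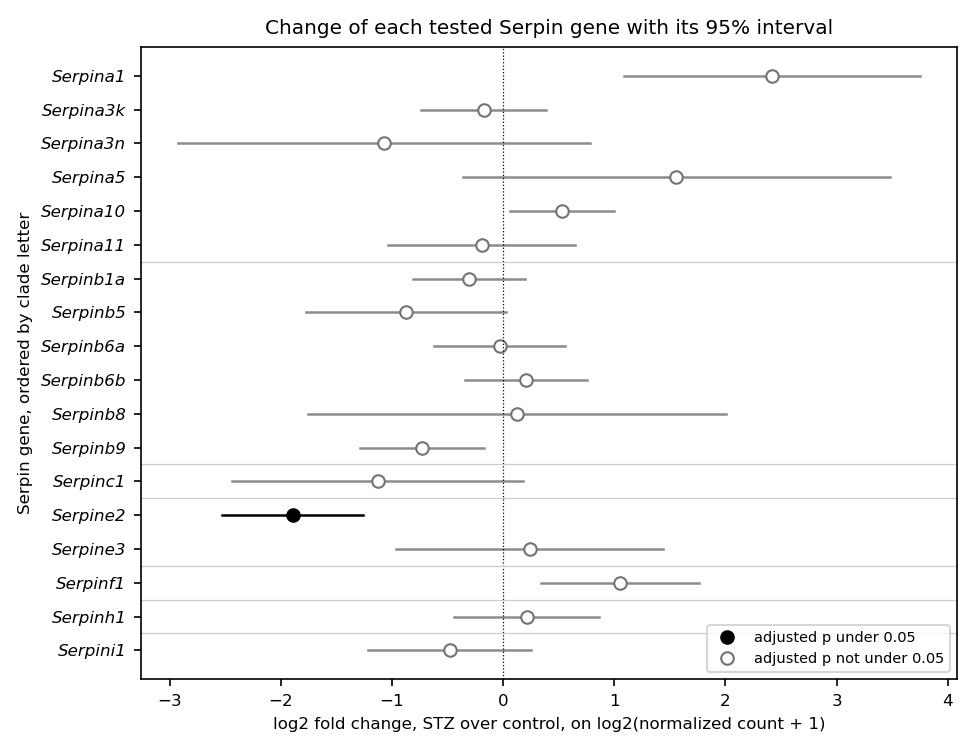
The log2 fold change of each tested Serpin gene, STZ over control, on log2(normalized count + 1), with its 95% interval from limma and genes ordered by clade letter. The filled circle passed an adjusted p of 0.05, and it is Serpine2, at −1.89.

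Serpine2 encodes protease nexin-1, a cell-bound inhibitor of thrombin, urokinase and prostasin. It lies on chromosome 9 of rn4 from 79091424 to 79166330. Its level was 193, 326 and 137 normalized counts in the control libraries, listed always by replicate number from 1 to 3, while the values were 52.9, 58.4 and 52.2 in the STZ libraries. All STZ libraries lay below all control libraries, and they lay close together while the control libraries were spread over a wide range. The means were 218 ± 97.0 and 54.5 ± 3.36 (SD, n = 3 each), so that control was 4.01 times STZ. Its log2 fold change was −1.89 (SE 0.29, with an adjusted p by limma of 0.00858). The adjusted p stayed between 0.00244 and 0.0328 by limma when each library was left out in turn. The gene did not pass in limma without a filter on low values or without the intensity trend.

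Serpine3, of the same clade, lies on chromosome 15 between positions 41917863 and 41942031 and had 8.20, 3.81 and 10.02 normalized counts in control and 6.50, 7.91 and 11.04 in STZ libraries. Its groups overlapped, the log2 fold change was 0.24 (95% interval −0.96 to 1.44, adjusted p = 0.919 by limma) with a sign that turned to −0.11 without control replicate 2, and it was above the olfactory receptor percentile in 4 libraries. Summed over Serpine2 and Serpine3, the level was 201, 329.5 and 147 in control and 59.4, 66.3 and 63.2 in STZ libraries, most of it from Serpine2. The endothelial markers did not all move in the same direction. Of the 5 genes measured, Emcn fell and Vwf rose. Pecam1, Cdh5 and Tek did not pass, with log2 fold changes of 0.045, −0.56 and −0.61 and adjusted p-values of 0.972, 0.163 and 0.156 by limma. Cdh5 and Tek were still lower in every STZ library than in every control library, while Pecam1 overlapped. Emcn, a sialomucin of capillary endothelium, had 6520.1, 5184 and 4827 normalized counts in control and 2246, 2003 and 2037 in STZ libraries (log2 fold change −1.38, adjusted p = 0.00679 by limma). Vwf, the clotting protein von Willebrand factor, had 26.7, 51.9 and 64.6 against 103, 227 and 242 (log2 fold change 1.97, adjusted p = 0.0264 by limma). All 3 thick ascending limb markers found were also lower in every STZ library than in every control library, with a median log2 fold change of −2.06. What part endothelial or thick ascending limb RNA had in the decrease of Serpine2 was not tested.

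Among the proteases that serpins inhibit, 27 of the 33 listed genes were found and 18 were tested. Plat alone passed, and it fell. Plat encodes tissue-type plasminogen activator, a target of neuroserpin. It had 11051, 14469 and 9503 normalized counts in control against 4539, 4625 and 3861 in STZ libraries, with no overlap between the groups. Its log2 fold change came to −1.41 (SE 0.23, with an adjusted p by limma of 0.0125). It lost the call without control replicate 2, at 0.0795, and without STZ replicate 2, at 0.0517.

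Plau, which encodes urokinase, had 1276, 1103 and 1222 normalized counts in control and 869, 1180.0 and 590.3 in STZ libraries. STZ replicate 2 lay within the control range, and the log2 fold change of −0.50 had an adjusted p of 0.376 by limma. Prss8, the gene of prostasin, was counted together with the neighbouring Myst1, so its value is uncertain. That feature had 795, 844 and 593 normalized counts in control and 849, 770 and 578 in STZ libraries, and its log2 fold change was −0.025 (adjusted p = 0.979 by limma), a sign that turned positive when control replicate 1 or 2 or STZ replicate 3 was left out. Klk1 was not analysed here. Over the 18 tested proteases the median log2 fold change was −0.030, with 7 genes above 0 and 11 below.

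Of 14 cofactors, receptors and clearance proteins, 12 were found and 11 tested. Procr, the endothelial protein C receptor, alone passed the threshold. It had 148, 112 and 151 normalized counts in control and 69.6, 50.4 and 69.3 in STZ libraries, again without overlap (log2 fold change −1.11, SE 0.23, with an adjusted p by limma of 0.0341). The call was lost with any single library left out, at an adjusted p between 0.0585 and 0.142. Plaur, the urokinase receptor, was at or under 3 reads in all control libraries, with 2.05, 2.29 and 1.11 normalized counts, and had 16.7, 5.93 and 6.02 in the STZ libraries. The groups did not overlap, but the gene did not pass the test (adjusted p = 0.284 by limma).

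F2r, the thrombin receptor, had 192, 125 and 216 normalized counts in control and 338, 266 and 291 in STZ libraries. Its groups did not overlap, and the log2 fold change of 0.78 had an adjusted p of 0.125 by limma. Lrp1, the receptor that clears serpin and protease complexes, had 72.8, 91.5 and 112 in control and 142, 86.1 and 152 in STZ libraries, with overlap (log2 fold change 0.43, adjusted p = 0.513 by limma). Vtn, the gene of the matrix protein vitronectin, was not analysed here.

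**Figure D3:**
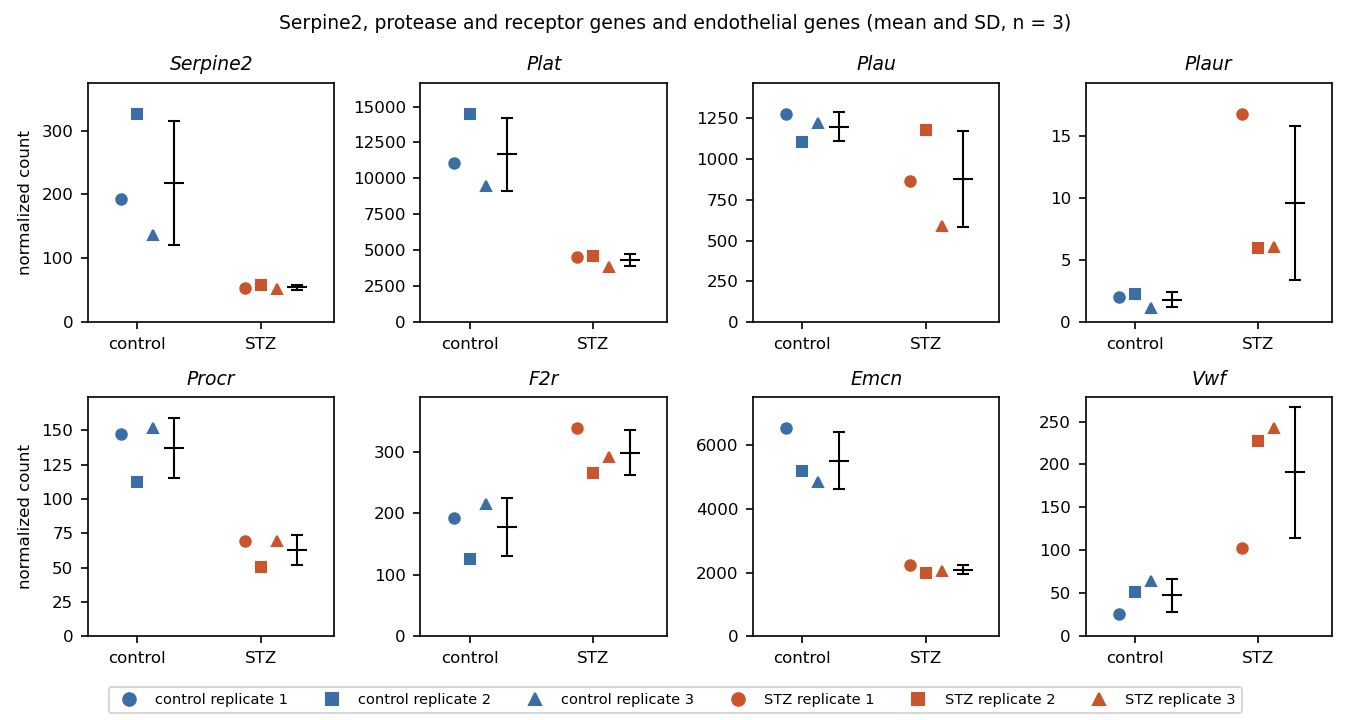
Normalized counts of Serpine2, Plat, Plau, Plaur, Procr, F2r, Emcn and Vwf in the control and STZ libraries, one symbol per library, with the mean and SD of the 3 libraries beside them and a vertical scale of its own for each gene. Serpine2, Plat, Procr and Emcn are lower in every STZ library than in every control library, Plaur, F2r and Vwf are higher, and Plau overlaps.

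Clade A spanned the widest range of log2 fold changes among the clades, although no gene of it passed. Clades A and B had 6 tested genes each and clade E had 2. Clades C, F, H and I had 1 each, and so no range. Serpina1 encodes alpha-1-antitrypsin, the plasma inhibitor of neutrophil elastase, and lies on chromosome 6 from 127998618 to 128021719. It had 10.3, 83.9 and 16.7 normalized counts in control and 100.3, 119 and 213 in STZ libraries. Control replicate 2 stood apart from the other control libraries and came close to the lowest STZ library, while the groups did not overlap. On the log2 scale the fold change was 2.42 (SE 0.60, 95% interval 1.09 to 3.75), with an adjusted p of 0.071 by limma. It passed without control replicate 2, at a log2 fold change of 3.28 and an adjusted p of 0.00503 by limma. It did not pass with any other library left out, at an adjusted p between 0.0854 and 0.197 by limma. On recovered reads the adjusted p was 0.142 by edgeR and 0.305 by DESeq2.

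Serpina10 encodes the protein Z-dependent protease inhibitor, which acts on clotting factor X in its active form. Its position is chromosome 6, 127887685 to 127896122. Control libraries held 136, 128 and 94.6 normalized counts of it, and STZ libraries held 198, 166 and 154. The groups did not overlap, yet the log2 fold change of 0.53 (95% interval 0.065 to 1.001) had an adjusted p of 0.261 by limma. Serpina5, the protein C inhibitor, had no read in control replicate 1, while the other control libraries held 4.58 and 7.79 normalized counts, against 4.64, 14.8 and 13.1 in STZ libraries. Its log2 fold change was 1.56 (SE 0.87, with an adjusted p by limma of 0.457), which ranged from 0.62 without control replicate 1 to 2.19 without control replicate 3, and it was above the olfactory receptor percentile in 3 libraries.

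Serpina3n, a rat relative of alpha-1-antichymotrypsin and an acute phase gene, lies on chromosome 6 from 128461774 to 128469309. Control libraries held 6065, 686 and 490 normalized counts of it, and STZ libraries held 1741, 355.1 and 355.4. Replicate 1 was the highest library of both groups, and control replicate 1 was far above all others. On the log2 scale the fold change was −1.07 (SE 0.84, with an adjusted p by limma of 0.646). It became 0.059 without control replicate 1, which left STZ replicate 1 as the highest library. The sign turned in 1 of 19 alternatives. Each STZ library lay below the control library of the same number, although the samples were not treated as paired. Reads that fit several of the clustered Serpina3 copies were not counted by the authors, who kept uniquely mapped reads, and this makes the levels of Serpina3n and Serpina3k uncertain.

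Serpina3k, which RefSeq lists as Serpina3c and which is known as a kallikrein-binding protein, had 64.6, 61.0 and 63.4 normalized counts in control and 46.4, 79.1 and 47.2 in STZ libraries. The control libraries were close together, and the STZ libraries lay on both sides of them (log2 fold change −0.17, 95% interval −0.73 to 0.39, adjusted p = 0.862 by limma). Serpina11 had between 12.2 and 23.6 in control and between 10.9 and 17.1 in STZ libraries, with a log2 fold change of −0.19 (adjusted p = 0.907 by limma). Its sign turned positive, at 0.040 and 0.0037, without control replicate 2 or STZ replicate 2. The other 7 genes of the clade were not tested. Of these, 6, Serpina12, Serpina1f, Serpina3m, Serpina4, Serpina7 and Serpina9, stayed at or under 3 reads, and Serpina6, the gene of corticosteroid-binding globulin, exceeded 3 reads in control replicate 3 only, with 4 reads.

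With Serpina3n left out, the clade A genes summed to 229.6, 306 and 204 normalized counts in control and 369, 395 and 452 in STZ libraries, without overlap. Serpina3n was set aside after its values were seen. With Serpina1 and Serpina10 also left out, the sums were 83.0, 93.8 and 92.4 in control and 70.6, 109.8 and 85.3 in STZ libraries, which overlapped, so the difference came from those genes. With all genes of the clade they summed to between 693 and 6295 in control and between 750 and 2110 in STZ libraries, and the groups overlapped. Since many clade A serpins are known as liver genes, hepatocyte markers were read beside them. Alb, Ttr and Fgb, the 3 of 6 that were found, together had between 8.20 and 27.8 normalized counts in control and between 3.71 and 24.1 in STZ libraries. The ranges of these markers overlapped between the groups.

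**Figure D4:**
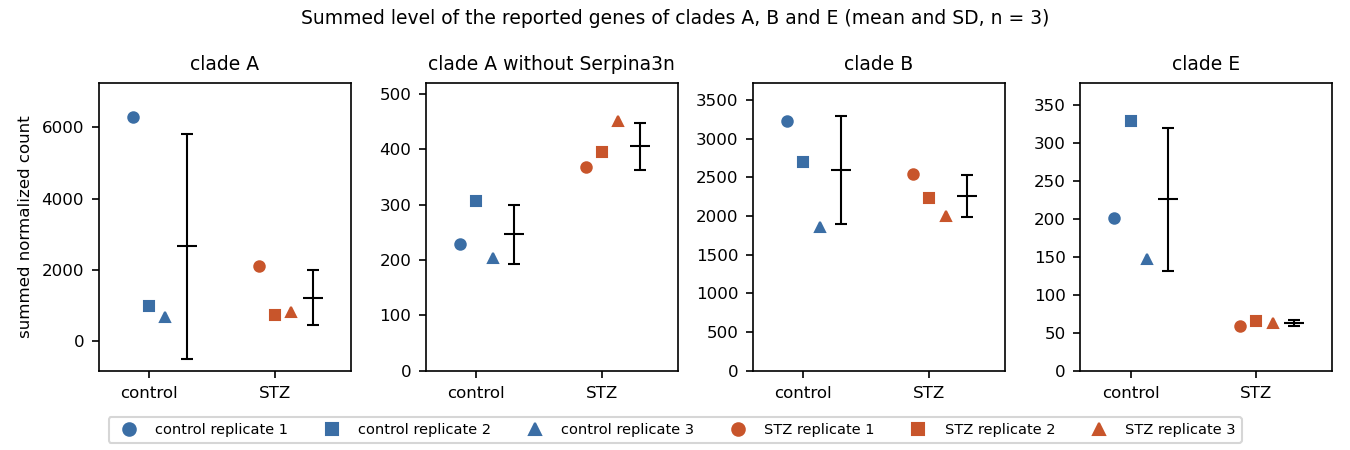
Summed normalized counts of the genes of clade A, of clade A without Serpina3n, of clade B and of clade E (Serpine2 and Serpine3) in each library, with the mean and SD of the 3 libraries of each group. Only the panels of clade A without Serpina3n and of clade E show groups that do not overlap, higher in STZ for the former and lower for the latter. Serpina3n was set aside after its values were seen, and the groups overlapped once Serpina1 and Serpina10, which did not pass, were also left out. The clade E panel is mostly Serpine2.

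No gene of clade B passed. The groups did not overlap in 20.3% of all features tested, and in 1 of the 6 tested genes of clade B. This was Serpinb9, which encodes the intracellular inhibitor of granzyme B, the killer cell protease. Its position is chromosome 17, 37780200 to 37791625. Control libraries held 313, 240.3 and 269 normalized counts of it, and STZ libraries held 164, 232 and 115. The lowest control and the highest STZ library were close to each other. Its log2 fold change came to −0.73 (95% interval −1.29 to −0.17), with an adjusted p of 0.188 by limma. Gzmb, the gene of its target, had 31.8, 117 and 69.0 in control and 16.7, 45.5 and 56.2 in STZ libraries, with overlap (log2 fold change −0.84, adjusted p = 0.492 by limma).

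Serpinb6a, an intracellular inhibitor of cathepsin G and related proteases, had 1951, 1522 and 939 normalized counts in control and 1695, 1195 and 1295 in STZ libraries. The STZ libraries lay inside the control range, and the log2 fold change of −0.030 (95% interval −0.62 to 0.56, adjusted p = 0.979 by limma) changed sign when control replicate 1 or 2 or STZ replicate 2 or 3 was left out. Serpinb1a, which inhibits neutrophil elastase and its relatives, had 888, 861 and 568 in control and 617, 741 and 502 in STZ libraries (log2 fold change −0.31, 95% interval −0.81 to 0.20, adjusted p = 0.62 by limma). Serpinb6b had between 30.5 and 44.1 in control and between 41.5 and 47.4 in STZ libraries, with a log2 fold change of 0.21 (adjusted p = 0.811 by limma). Serpinb1a, Serpinb6a, Serpinb6b and Serpinb9 have close copies in the genome, so their levels carry the same limit of unique mapping as Serpina3n.

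Serpinb5, or maspin, an epithelial serpin that does not inhibit proteases, had 26.7, 25.9 and 13.4 normalized counts in control and 11.1, 7.91 and 15.1 in STZ libraries. Control replicate 3 fell among the STZ libraries, and the log2 fold change of −0.87 (95% interval −1.77 to 0.027) had an adjusted p of 0.359 by limma. Serpinb8 had between 2.29 and 7.79 in control and between 0.929 and 9.03 in STZ libraries and was above the olfactory receptor percentile in 2 libraries. The sign of its log2 fold change, 0.13 (SE 0.86, with an adjusted p by limma of 0.975), changed when control replicate 1 or 2 or STZ replicate 2 or 3 was left out.

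The other 10 genes of clade B were not tested, and 7 of them never exceeded 3 reads. Serpinb3, a relative of the squamous cell carcinoma antigen, had 1.03, 1.53 and 6.68 normalized counts in control and 2.79, 7.91 and 7.03 in STZ libraries, with more than 3 reads in 3 of the 6 libraries. Serpinb7, known as megsin from mesangial cells, had 3.08, 3.05 and 2.23 in control and 1.86, 0.989 and 1.004 in STZ libraries. Its highest library held 4 reads, and a change could not be detected at this depth. Serpinb11 likewise had at most 4 reads.

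Serpinf1 encodes pigment epithelium-derived factor, a secreted serpin that does not inhibit proteases and is known for blocking vessel growth. Its position is chromosome 10, 62713442 to 62718711. Control libraries held 17.4, 25.9 and 41.2 normalized counts of it, and STZ libraries held 68.7, 49.5 and 52.2. Every STZ library lay above every control library, with means of 28.2 ± 12.04 and 56.8 ± 10.4 (SD, n = 3 each), a ratio of 2.02. The log2 fold change of 1.05 (95% interval 0.34 to 1.76) had an adjusted p of 0.137 by limma. It passed in 1 of 19 alternatives, without control replicate 3, with a log2 fold change of 1.36 and an adjusted p of 0.0384 by limma. With other libraries left out the adjusted p reached 0.345 by limma.

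Its clade neighbour Serpinf2, the gene of alpha-2-antiplasmin, lies near it on chromosome 10 from 62748115 to 62756200. It had 3.08, 6.10 and 8.90 normalized counts in control and 2.79, 2.97 and 1.004 in STZ libraries. All STZ libraries held at most 3 reads, and with a mean under 5 the gene was not tested. Plg, the gene of its target plasminogen, had 1.03, 9.15 and 25.6 in control and 3.71, 5.93 and 21.1 in STZ libraries, with overlap (log2 fold change 0.13, adjusted p = 0.975 by limma).

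Serpinc1 encodes antithrombin, the heparin-dependent inhibitor of thrombin. It had 7.18, 19.8 and 24.5 normalized counts in control and 12.1, 6.92 and 3.01 in STZ libraries, and the groups overlapped. The log2 fold change of −1.13 (95% interval −2.44 to 0.18) had an adjusted p of 0.425 by limma. The gene of heparin cofactor II, Serpind1, had at most 4 reads. F2, the gene of their target prothrombin, had 4.10, 21.4 and 21.1 in control and 1.86, 10.9 and 27.1 in STZ libraries (log2 fold change −0.47, adjusted p = 0.891 by limma).

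Serpini1 encodes neuroserpin, an inhibitor of tissue-type plasminogen activator. It had 41.0, 51.1 and 23.4 normalized counts in control and 20.4, 27.7 and 31.1 in STZ libraries, with overlap (log2 fold change −0.48, 95% interval −1.21 to 0.26, adjusted p = 0.584 by limma). Serpini2 had at most 2 reads. Serpinh1 encodes HSP47, the chaperone of the endoplasmic reticulum that holds collagen in its folded form. It had 43.1, 33.6 and 52.3 in control and 34.4, 51.4 and 67.3 in STZ libraries, and its log2 fold change was 0.21 (95% interval −0.44 to 0.87, adjusted p = 0.851 by limma), with a sign that turned to −0.0082 without STZ replicate 3.

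Of 20 genes that fold or modify collagen with HSP47, or encode its collagen clients, 16 were found, 15 were tested and none passed by limma at an adjusted p of 0.05. Col1a1, a chain of type I collagen, had 20.5, 19.8 and 44.5 normalized counts in control and 17.6, 24.7 and 46.2 in STZ libraries (log2 fold change 0.050, adjusted p = 0.979 by limma), and its sign turned negative when control replicate 1 or 2 or STZ replicate 3 was left out. P4hb, the protein disulfide isomerase that is also a subunit of prolyl hydroxylase, had a log2 fold change of −0.23 (adjusted p = 0.716 by limma). The lowest was Col4a1, a basement membrane chain, with 226, 291 and 332 in control and 152, 136 and 206 in STZ libraries. It was named here after its values were seen, and its log2 fold change of −0.78 had an adjusted p of 0.115 by limma.

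**Figure D5:**
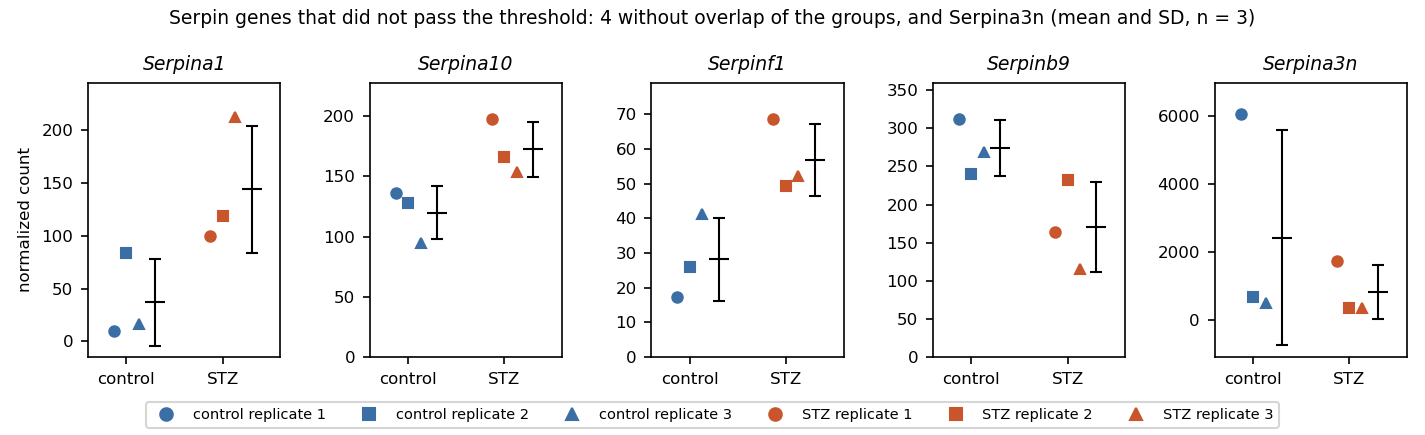
Normalized counts of Serpina1, Serpina10, Serpinf1, Serpinb9 and Serpina3n in the control and STZ libraries, with the mean and SD of the 3 libraries of each group. The first 4 have groups that do not overlap and an adjusted p between 0.071 and 0.261, and Serpina3n has 1 control library at 6065 normalized counts.

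Protease inhibitors of other families were read beside the serpins. Of 24 listed genes, 22 were found and 16 tested, and none passed by limma at an adjusted p of 0.05. Tfpi, the inhibitor of tissue factor, had 508, 402 and 412 normalized counts in control and 305, 265 and 234 in STZ libraries, without overlap (log2 fold change −0.72, SE 0.19, with an adjusted p by limma of 0.0879). DESeq2 on recovered reads called Tfpi lower, at an adjusted p of 0.0239, and edgeR did not call it. A2m, the general protease trap alpha-2-macroglobulin, had 14.4, 18.3 and 24.5 in control and 42.7, 32.6 and 81.3 in STZ libraries, also without overlap (log2 fold change 1.33, SE 0.36, with an adjusted p by limma of 0.0956). Both were named after their values were seen. Spint1 and Spint2, the Kunitz inhibitors of matriptase and prostasin, had log2 fold changes of 0.33 and 0.33, with adjusted p-values of 0.563 and 0.444 by limma. Spint2 was higher in every STZ library than in every control library, while Spint1 overlapped. The median log2 fold change of the 16 genes was −0.0049. The list also held Anxa2, a binding site of plasminogen rather than an inhibitor.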

How the data were processed

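RNA of the IM tip of control and STZ rats, 3 samples of each, was converted to cDNA with a PCR-based kit, and sequenced. Per the paper's methods and the submitters' processing notes, alignment by the authors was to rn4 and used STAR 2.3.1t. They counted uniquely mapped reads per gene and normalized these with DESeq 1.16.0. Which program counted the reads, and whether it used strand, is not given in the sources used here, so antisense or overlapping genes could share reads. The deposited signal is the count of a feature divided by 1 size factor per library, and coordinates are those of rn4 in the table. Reads were recovered by dividing by the smallest value above 0, and 100.0% of values were whole to within 0.001 of a read in every library.

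Groups and replicate numbers were taken from the sample titles. Genes were compared on the scale of log2(normalized count + 1) by limma 3.58.1 (R 4.3.3) with its intensity trend, over 13486 features whose mean reached 5, and Benjamini-Hochberg adjustment over all of them at 0.05. The log2(normalized count + 1) scale understates the change of low genes. Recovered reads served edgeR 4.0.16 and DESeq2 1.42.0 as alternatives only. The pseudocount was also set to 0.5 and 5 and the minimum mean to 1, 20 or none. Libraries were also scaled to equal totals or by quantiles, limma was run without its trend and with robust moderation, and a replicate block was added or each library left out in turn. edgeR with the replicate block was chosen after seeing the data. The fits were tested on simulated data. The normalized count per kilobase was not computed, and levels were not compared between genes.

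Named genes are the tested Serpin genes, Serpin genes above 3 reads in some library, partner genes that passed, and Plau, Plat, Plaur, Prss8, F2r, Lrp1, Vtn, Klk1, Spint1, Spint2, P4hb and Col1a1. Gzmb, Plg, F2, Tfpi, A2m, Col4a1, Anxa2, the marker genes given with values and the Serpin genes at or under the floor are named outside this rule. A Serpin row is not reported here and is left out of every Serpin count, although it stayed in the fit. Members and lists were chosen with earlier results of these data known. The olfactory receptor set was taken by the name Olr, which includes the unrelated Olr1. Among the markers, Slc34a1 was read through a synonym from the row named Slc17a2, so its value is uncertain. Avpr2 and Slc5a2 were each counted together with other genes. Figures were made with Python 3.11.15 and matplotlib 3.10.9.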

Additional observations from a re-analysis of the deposited data

How the results depend on the processing

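Against 283 features called by limma over the whole table, there were 98 without a filter on low values, 522 with quantile normalization, 31 without the intensity trend, 535 with DESeq2, and between 88 and 352 with each library left out. Of the Serpin genes, 1 was lower and none higher by limma at an adjusted p of 0.05, where 5 had an unadjusted p under 0.05 and edgeR and DESeq2 also called none higher. Without a filter and without the trend the number lower was 0, and with each library left out it was 1. Serpina1 was called higher at a minimum mean of 20, making 1 gene higher, and with each library left out there were 0 or 1. Partner genes were 0 higher and 2 lower by limma and by edgeR, and 0 higher and 3 lower by DESeq2 (Tfpi added). They were 0 lower without a filter and without the trend. With equal library totals 4 were lower (Tfpi and Ppib added). With quantile normalization 1 was higher (Tmprss2) and 4 were lower (Tfpi and Ctsb added). With each library left out between 0 and 1 were lower. A changed filter alters the number of features tested and also the features to which limma fits its trend, so unadjusted p-values can move too. By limma, Serpina1 had an adjusted p of 0.486 without a filter, and Serpine2 had 0.00573 at a minimum mean of 1. For every setting the cause of the change was not tested.

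The replicate block, a term for the replicate number in limma, gave 561 called features, 1 Serpin gene higher (Serpina1, adjusted p = 0.0274), 2 lower (Serpine2 and Serpina3n, the latter at 0.0356), 2 partner genes higher (A2m and F2r) and 4 lower (Plat, Procr, Tfpi and Col4a1). edgeR with the replicate block, added after seeing the data, called 544 features, 2 Serpin genes lower and none higher, and 2 partner genes higher and 4 lower. Same-numbered control and STZ libraries correlated in their deviations with r = 0.574, −0.015 and 0.496 for numbers 1, 2 and 3 (across 13486 features, which are not independent replicates), and the olfactory receptor percentile was 2.05 and 1.86, 6.29 and 5.93, and 10.02 and 9.03 in control and STZ libraries of the same number. Not every pair exceeded 0.1, so the samples were not treated as paired. That rule cannot decide the question, because control replicate 2 had r near 0 with every STZ library (0.005, −0.015 and 0.006). Control replicate 1 had r = −0.487 with STZ replicate 3, and control replicate 3 had r = −0.592 with STZ replicate 1. Whether same-numbered libraries shared a processing step was not tested. STZ replicate 2 correlated best with control replicate 3, at 0.27.

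Signs changed only with a library left out, with log2 ranges of −0.41 to 0.040 for Serpina11, −1.83 to 0.059 for Serpina3n, −0.32 to 0.21 for Serpinb6a, −0.33 to 0.86 for Serpinb8, −0.11 to 0.48 for Serpine3, −0.0082 to 0.47 for Serpinh1, −0.18 to 0.14 for Prss8 and −0.32 to 0.42 for Col1a1. The log2 fold change of Serpine2 stayed between −2.18 and −1.56 over 19 alternatives and was called in 17 of them. The number of Serpin genes above background was 10 with the 99th olfactory receptor percentile and 15 with more than 3 reads in every library. DESeq2 gave no adjusted p for Serpina3n. With 3 libraries a group and log2 SEs between 0.21 and 0.87, small changes of a Serpin gene were not detectable.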

Other observations

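Reads that reached across neighbouring genes were listed as features of their own. The feature that joins LOC299282 and Serpina3n, which spans chromosome 6 from 128435210 to 128469309, held 45.1, 6.10 and 2.23 normalized counts in the control libraries, listed by replicate number, while the values were 6.50, 2.97 and 1.004 in the STZ libraries, and control replicate 1 was the highest library here as it was for Serpina3n. The feature that joins Ripk1 and Serpinb6a had between 2.29 and 8.90 in control and between 1.004 and 4.64 in STZ libraries. Neither starts with a Serpin name, and neither was counted among the Serpin genes. The former was among the 13486 features tested, with a log2 fold change of −1.38 (adjusted p = 0.584 by limma), and the latter had a mean under 5.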
